A study of Mus musculus with 12 samples.

Results

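Genes of smooth muscle contraction and of the actin cytoskeleton were followed in cultured mouse embryonic fibroblasts, 42 genes out of 26305 with an identifier in the count table. They were taken from a list of names that was made with earlier results of these data known, and sorted by known role. Counts were per gene, so the isoforms of a gene were not told apart, and the group names do not show cell type. The smooth muscle group held 19 genes, the general cytoskeleton group held 21, and the other 2 were the transcriptional regulators Srf and Myocd. All 42 were in the table and all 42 passed the filter on low counts, which kept 13499 genes.

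The fibroblasts came from wild type male C57BL/6 embryos at E13.5 and were grown with 10% serum at 3% oxygen. The compound WM-2474, named an inactive control by the submitters, was given at 10 µM for 240 h or 96 h, and the vehicle DMSO for 240 h or 96 h. Each of these 4 groups had 3 biological replicates, 12 libraries in all. The sources used here do not say whether the replicates came from separate embryos, so the p-values measure the spread between these cultures.

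Contraction in smooth muscle is driven by myosin that pulls on actin filaments after myosin light chain kinase has phosphorylated the regulatory light chain. The genes of this machinery share a regulator, serum response factor (SRF), which binds a DNA element called the CArG box. Its coactivator myocardin is largely restricted to heart and smooth muscle, while the related coactivators Mrtfa and Mrtfb act in many cells and respond to the supply of unpolymerised actin. Fibroblasts that take on a contractile, myofibroblast form are known for high smooth muscle actin, and their stress fibres and focal adhesions use the general cytoskeleton genes as well.

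The libraries held 7313007 to 26019167 counts, and 16036 to 17307 genes had at least 1 count. A floor of 3 counts corresponded to 0.120 to 0.425 CPM (counts scaled to a common library size with TMM factors, the unit of all levels below unless stated). The 9 fibroblast markers, collagens and Pdgfra among them, were all expressed and summed to 23466 CPM or more in every library. DMSO 240 h replicates 1 and 2 stood apart in B-lineage and Xist levels, and they held the fewest counts (7313007 and 7701112). Their 7 B-lineage markers summed to 5.66 and 7.34 CPM, against 0.434 to 2.08 CPM in the other 10 libraries, and their Xist level was 5.24 and 4.48 CPM, against at most 0.925 CPM. An eighth listed marker, Ebf1, was left out of that sum after its values were seen, since every library held 24.1 CPM or more of it. Leaving out both leaves 1 library in that group, so the fit without both is described by effect sizes.

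SRF binds at the CArG box, a 10-base element of CC, 6 bases of A or T, and GG that reads alike on both strands. RefSeq promoter windows on GRCm38.p6, from 250 bases before to 50 bases after a gene start, were available for 35 of the 42 genes. A CArG box stood in such a window in 7 of the 35 (20%), namely Srf, Myl9, Ldb3, Actg1, Cnn2, Myl6 and Vcl, against 488 of 27025 genes in the whole table of promoters (1.81%). By group these were 2 of 15 smooth muscle genes, 4 of 19 general cytoskeleton genes and Srf. When 1 of the 6 central bases could be G or C, 12 of the 35 had a match (34.3%), against 3050 of all genes (11.3%), and Acta2 then had 2. These are matches of letters, with no test, and they say nothing on whether SRF was bound. The sequences around these matches are shown because the list is organised around this regulator, each 5′ to 3′ on the strand of its gene with the box in capitals.
Srf, minus strand of chr17:46556190-46556269: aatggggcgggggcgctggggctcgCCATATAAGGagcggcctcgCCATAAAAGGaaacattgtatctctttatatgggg
Myl9, plus strand of chr2:156775278-156775337: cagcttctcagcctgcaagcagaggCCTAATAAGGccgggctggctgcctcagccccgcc
Ldb3, minus strand of chr14:34588682-34588741: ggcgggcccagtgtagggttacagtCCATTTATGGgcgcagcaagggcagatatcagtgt
Acta2, minus strand of chr19:34255373-34255482: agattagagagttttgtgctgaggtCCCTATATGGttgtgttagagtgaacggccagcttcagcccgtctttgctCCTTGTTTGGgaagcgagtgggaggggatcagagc
Actg1, minus strand of chr11:120348551-120348610: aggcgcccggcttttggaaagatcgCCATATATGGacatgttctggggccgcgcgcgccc
Cnn2, plus strand of chr10:79988519-79988578: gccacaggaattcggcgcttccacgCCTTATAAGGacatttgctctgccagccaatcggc
Myl6, minus strand of chr10:128493025-128493084: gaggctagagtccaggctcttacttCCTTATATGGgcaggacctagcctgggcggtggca
Vcl, plus strand of chr14:20929148-20929205: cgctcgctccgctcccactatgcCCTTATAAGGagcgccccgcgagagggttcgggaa
Distances are to the start on which each promoter window was built. The boxes of Srf began 82 and 62 bases before it, and the relaxed matches of Acta2 began 84 and 34 bases before it. The matches of Srf, Acta2, Ldb3 and Myl6 lay inside the outermost annotated bounds of their genes. The box of Ldb3 lay 35 bases upstream, that of Myl6 50, that of Cnn2 56, that of Actg1 90, that of Myl9 161 and that of Vcl 227. Both Cnn2 and Vcl carried the same 10 letters.

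The main question the 4 groups allowed was how these genes differed between long and short culture, within each treatment. Most of the 42 genes were higher at 240 h than at 96 h with either treatment, and the median change was larger in the smooth muscle group than in the general cytoskeleton group. With WM-2474, 39 of the 42 genes rose and 0 fell (edgeR quasi-likelihood test, Benjamini-Hochberg adjusted p under 0.05), while 15.9% of all tested genes rose and 14.8% fell. With DMSO, 33 rose and 1 fell, against 17.5% and 17.3% of all tested genes. Since the 42 were listed with earlier results of these data known, these counts are a description and no test of the list. At an unadjusted p under 0.05 there were 39 and 37 of the 42, against 40.6% of all tested genes with WM-2474 and 43.5% with DMSO. All 3 libraries at 240 h lay above all 3 at 96 h for 38 of the 42 with WM-2474 and 36 with DMSO, where 21.1% and 22.9% of all tested genes did so, and below them for 0 and 1, where 21.2% and 22.8% did. Leaving out DMSO 240 h replicates 1 and 2 leaves 1 library in that group, so calls of that fit are not given. The log2 fold changes with DMSO were then 0.23 for Des, 0.12 for Tln1 and -0.09 for Zyx. The 33 that rose with DMSO all rose with WM-2474 as well, a pattern that 12.4% of all tested genes shared. These are bulk cultures, in which more cells of a contractile kind and more of each RNA per cell cannot be told apart.

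The groups of genes differed in size of change. All 19 smooth muscle genes rose with WM-2474, with a median of 1.98-fold, and 17 rose with DMSO, with a median of 1.93-fold. Of the 21 general cytoskeleton genes, 18 rose with WM-2474 and 14 with DMSO, and their medians were 1.25-fold and 1.23-fold. Over all tested genes the median log2 fold change was -0.0039 with WM-2474 and -0.0064 with DMSO. A rise of more than 2-fold was found for 9 smooth muscle genes and Myocd with WM-2474 and for 8 smooth muscle genes with DMSO, which 1.79% and 1.76% of all tested genes reached. A rise of more than 1.5-fold was reached by 13 smooth muscle genes with each treatment, and by 4% of all tested genes with WM-2474 and 3.93% with DMSO. Among the general cytoskeleton genes only Palld passed 1.5-fold with WM-2474, and Palld and Lpp did so with DMSO. Together the 42 genes held 3.91 to 4.08% of all counts in WM-2474 240 h libraries, against 3.09 to 3.22% in WM-2474 96 h libraries, and 3.88 to 4.13% in DMSO 240 h libraries, against 3.10 to 3.16% in DMSO 96 h libraries.

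**Figure D1:**
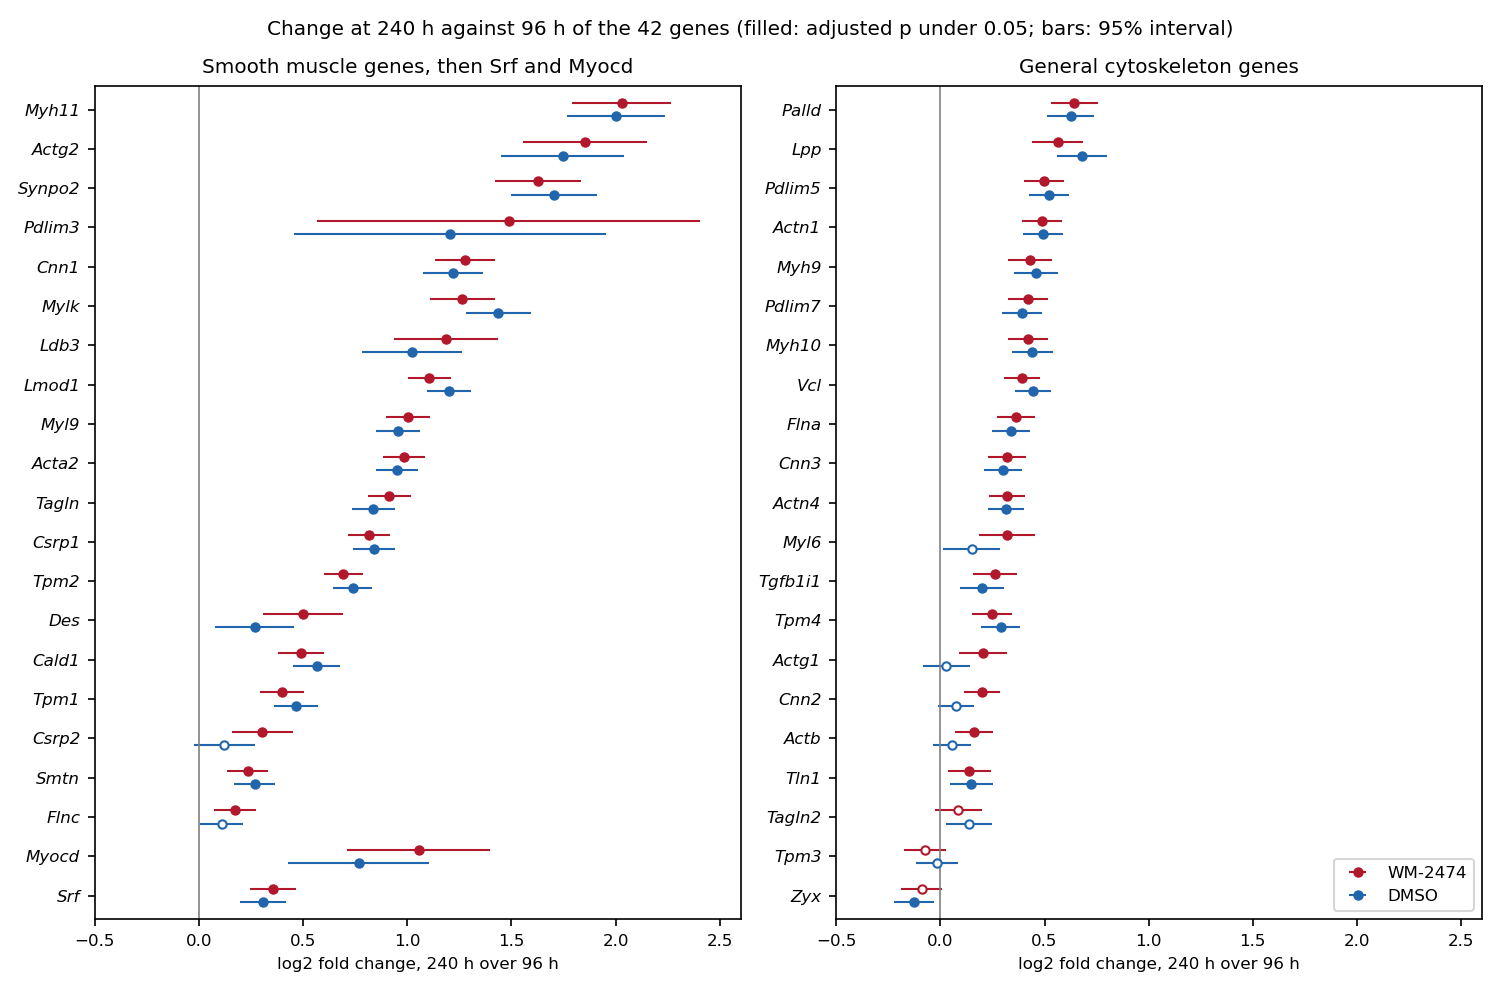
Log2 fold change at 240 h over 96 h of the 42 genes, with WM-2474 in red and DMSO in blue, as estimate and 95% interval on the x axis. Filled points passed an adjusted p of 0.05. All 19 smooth muscle genes are filled for WM-2474, and the general cytoskeleton genes at the right lie closer to 0.

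Myh11, which encodes the smooth muscle myosin heavy chain and lies on chromosome 16, changed most among the 42. It was at 286, 271 and 274 CPM in WM-2474 240 h cultures, against 60.0, 66.5 and 77.8 CPM in WM-2474 96 h cultures. In DMSO 240 h cultures it was at 235.5, 285 and 241 CPM, against 55.5, 70.1 and 65.0 CPM in DMSO 96 h cultures. Every 240 h library was above every 96 h library. The log2 fold change was 2.03 ± 0.11 (SE) with WM-2474, or 4.08-fold (95% interval 3.46 to 4.81, adjusted p = 4.64e-08). With DMSO it was 2.00 ± 0.11, or 4.01-fold (3.40 to 4.72, adjusted p = 5.22e-08). Ordered by log2 fold change among the 13499 tested genes, Myh11 was number 25 from the top with WM-2474 and number 28 with DMSO.

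Actg2, the gamma actin of visceral smooth muscle, followed. Its mean level was 473 ± 55.0 CPM in WM-2474 240 h cultures, against 131 ± 15.9 CPM in WM-2474 96 h cultures (SD, n = 3 each). In DMSO 240 h cultures it was 435 ± 45.1 CPM, against 130 ± 14.3 CPM in DMSO 96 h cultures (SD, n = 3 each). The log2 fold changes were 1.85 ± 0.13 with WM-2474 and 1.75 ± 0.13 with DMSO (adjusted p = 4.72e-06 and 6.84e-06).

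Acta2, the alpha actin that marks smooth muscle and myofibroblasts, was the most abundant smooth muscle gene. It reached 5731, 5577 and 5802 CPM in WM-2474 240 h cultures, against 2766, 2869 and 3005 CPM in WM-2474 96 h cultures. It reached 5146, 5881 and 5454 CPM in DMSO 240 h cultures, against 2738, 2952 and 2845 CPM in DMSO 96 h cultures. The groups did not overlap, and the 240 h level was 1.98-fold the 96 h level with WM-2474 (95% interval 1.85 to 2.12) and 1.93-fold with DMSO (1.801 to 2.07). The adjusted p was 4.01e-14 with WM-2474 and 7.23e-14 with DMSO.

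Tagln encodes transgelin, an actin-binding protein also called SM22 alpha. Its level was 2614, 2934 and 2768 CPM in WM-2474 240 h cultures, against 1475, 1438 and 1505 CPM in WM-2474 96 h cultures. Its level was 2503, 2882 and 2721 CPM in DMSO 240 h cultures, against 1544, 1495 and 1503 CPM in DMSO 96 h cultures. The rise was 1.88-fold with WM-2474 and 1.78-fold with DMSO (adjusted p = 2.26e-13 and 1.01e-12), with no overlap. Exons of Pcsk7 and Gm48529 on the opposite strand cover 67.9% of the exon bases of Tagln. The level of Pcsk7 was 41.9 CPM at 240 h against 40.4 CPM at 96 h with WM-2474, and 40.4 CPM at 240 h against 39.4 CPM at 96 h with DMSO, and neither difference passed the test.

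Cnn1 encodes calponin 1, which binds actin and restrains the myosin motor. It was at 344, 356 and 365 CPM in WM-2474 240 h cultures, against 135, 147 and 158 CPM in WM-2474 96 h cultures. It was at 304, 373 and 329 CPM in DMSO 240 h cultures, against 139, 155.5 and 139 CPM in DMSO 96 h cultures. Its log2 fold change was 1.28 ± 0.07 with WM-2474 and 1.22 ± 0.07 with DMSO (adjusted p = 2.57e-11 and 4.89e-11).

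The kinase and its substrate rose as well. Mylk encodes myosin light chain kinase and was at 83.0, 72.4 and 81.6 CPM in WM-2474 240 h cultures, against 30.6, 31.7 and 36.4 CPM in WM-2474 96 h cultures. In DMSO 240 h cultures it was at 73.3, 72.9 and 72.6 CPM, against 24.3, 27.2 and 29.6 CPM in DMSO 96 h cultures. The lowest 240 h library was at 72.4 CPM and the highest 96 h library at 36.4 CPM, and the log2 fold changes were 1.26 ± 0.08 with WM-2474 and 1.44 ± 0.08 with DMSO. Myl9, the regulatory light chain that this kinase phosphorylates, was at 732, 721 and 688 CPM in WM-2474 240 h cultures, against 336, 356 and 377 CPM in WM-2474 96 h cultures. In DMSO 240 h cultures it was at 648, 718 and 680 CPM, against 333, 363 and 359 CPM in DMSO 96 h cultures. Its rise was 2.00-fold with WM-2474 and 1.94-fold with DMSO, with no overlap.

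Lmod1, leiomodin 1, which starts new actin filaments in smooth muscle, had the smallest adjusted p among the 42 with either treatment, 7.52e-15 with WM-2474 and 1.28e-15 with DMSO. It was at 231, 238 and 241 CPM in WM-2474 240 h cultures, against 105, 111 and 114 CPM in WM-2474 96 h cultures. It was at 220, 247 and 238 CPM in DMSO 240 h cultures, against 102, 107 and 98.0 CPM in DMSO 96 h cultures. Replicates of Lmod1 lay close together, and the log2 fold changes were 1.11 ± 0.05 with WM-2474 and 1.202 ± 0.05 with DMSO.

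**Figure D2:**
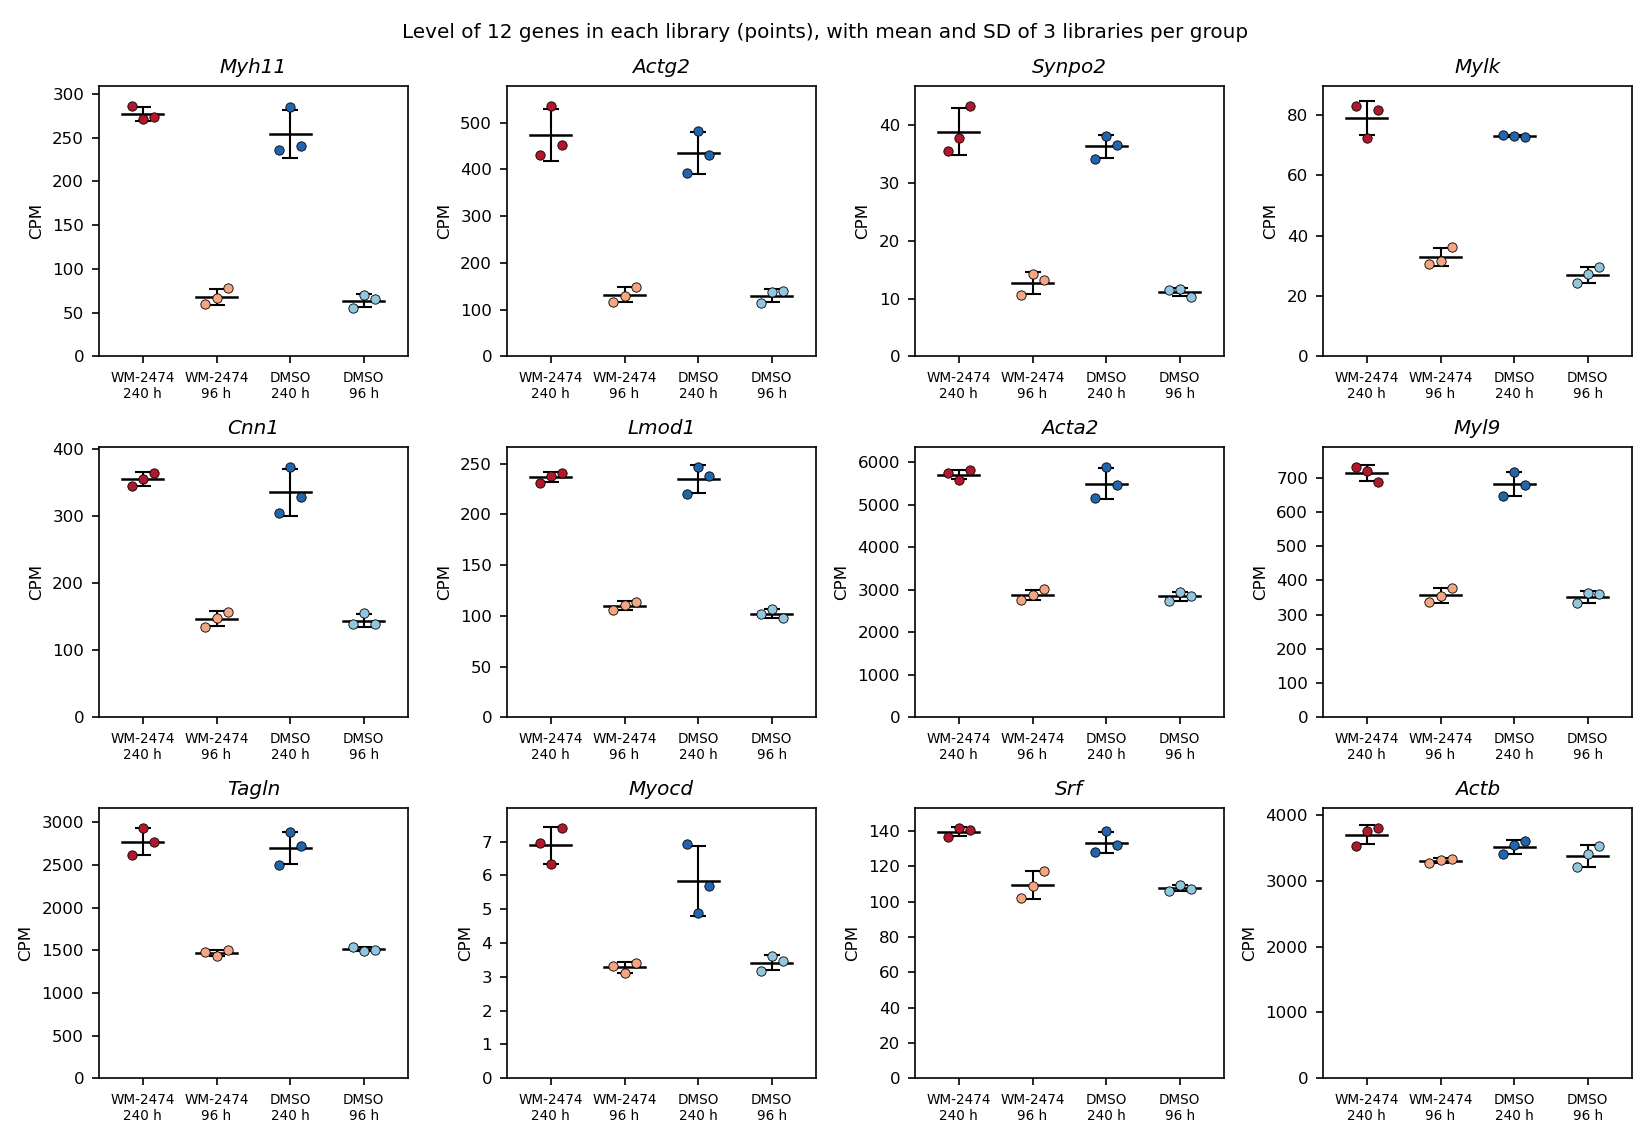
Level in CPM on the y axis of 12 of the genes in each library (points) of the 4 groups, with the mean and SD of 3 libraries. For the 9 smooth muscle genes shown the 240 h points lie above all 96 h points, as they do for Srf and Myocd, while Actb shows a small difference with WM-2474 and overlapping libraries with DMSO.

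Several genes of the smooth muscle group whose proteins belong to the Z-disc, dense body or thin filament rose by more than 1.5-fold as well. Synpo2, which bundles actin at Z-discs and dense bodies, had a log2 fold change of 1.63 ± 0.10 with WM-2474 and 1.71 ± 0.10 with DMSO, at 38.9 ± 3.999 CPM in WM-2474 240 h cultures, against 12.7 ± 1.88 CPM in WM-2474 96 h cultures (SD, n = 3 each). Ldb3, a Z-disc protein, rose by 2.27-fold with WM-2474 and 2.03-fold with DMSO. Csrp1, a LIM protein of the cytoskeleton, rose by 1.76-fold with WM-2474 and 1.79-fold with DMSO, and the tropomyosin Tpm2 by 1.62-fold and 1.67-fold. Pdlim3, a PDZ and LIM protein of the Z-disc, was the least abundant, at 1.15 ± 0.61 CPM in WM-2474 240 h cultures, against 0.393 ± 0.0966 CPM in WM-2474 96 h cultures (SD, n = 3 each). It rested on 4 to 37 counts per library. Its log2 fold change of 1.49 ± 0.45 with WM-2474 passed the test (adjusted p = 0.0125) but missed it without WM-2474 240 h replicate 1 (1.00, adjusted p = 0.141) and without WM-2474 96 h replicate 1 (1.36, adjusted p = 0.0539). With DMSO its value of 1.204 ± 0.36 (adjusted p = 0.0117) missed it without DMSO 240 h replicate 3 (1.15, adjusted p = 0.081) and under DESeq2 (1.22, adjusted p = 0.0591).

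The remaining 6 smooth muscle genes rose less or missed the test. Caldesmon (Cald1), which blocks myosin from actin, had a log2 fold change of 0.49 ± 0.05 with WM-2474 and 0.56 ± 0.05 with DMSO. The tropomyosin Tpm1 followed with 0.40 ± 0.05 and 0.47 ± 0.05, and smoothelin (Smtn), a stress fibre protein of differentiated smooth muscle, with 0.23 ± 0.05 and 0.27 ± 0.05. Desmin (Des), the muscle intermediate filament, had 0.50 ± 0.09 with WM-2474 and 0.27 ± 0.09 with DMSO (adjusted p = 0.000174 and 0.0251). The call of Des with DMSO was lost without DMSO 240 h replicate 2 (0.23, adjusted p = 0.085), without DMSO 240 h replicate 3 (0.30, adjusted p = 0.0508) and without DMSO 96 h replicate 2 (0.20, adjusted p = 0.132). The filament cross-linker Flnc had 0.17 ± 0.05 with WM-2474 (adjusted p = 0.00832), which missed the test without WM-2474 96 h replicate 1 (0.13, adjusted p = 0.0718), and 0.11 ± 0.05 with DMSO (adjusted p = 0.0903). The LIM protein Csrp2 had 0.30 ± 0.07 with WM-2474 (adjusted p = 0.0018) and 0.12 ± 0.07 with DMSO (adjusted p = 0.188).

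Both SRF regulators rose. Srf was at 136.5, 142 and 141 CPM in WM-2474 240 h cultures, against 102, 109 and 117 CPM in WM-2474 96 h cultures. It was at 128, 140 and 132 CPM in DMSO 240 h cultures, against 106, 109 and 107 CPM in DMSO 96 h cultures. The groups did not overlap, and the rise was 1.28-fold with WM-2474 and 1.24-fold with DMSO (adjusted p = 8.97e-06 and 5.50e-05). Myocd, the gene of myocardin, was at 6.94, 6.32 and 7.40 CPM in WM-2474 240 h cultures, against 3.325, 3.11 and 3.42 CPM in WM-2474 96 h cultures. It was at 6.94, 4.89 and 5.70 CPM in DMSO 240 h cultures, against 3.19, 3.603 and 3.48 CPM in DMSO 96 h cultures. Every Myocd value was above the floor of 3 counts, and no 240 h library was as low as a 96 h library of the same treatment. The log2 fold change of Myocd was 1.06 ± 0.17 with WM-2474 and 0.77 ± 0.16 with DMSO (adjusted p = 1.90e-05 and 0.000684). The difference between those changes was 0.29 ± 0.24, with a 95% interval of -0.20 to 0.78.

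Among the general cytoskeleton genes, Palld and Lpp had the largest fold changes with either treatment. Palladin (Palld), which organises stress fibres, was at 235, 246 and 238 CPM in WM-2474 240 h cultures, against 154, 156 and 151 CPM in WM-2474 96 h cultures. It was at 219, 242 and 237 CPM in DMSO 240 h cultures, against 147, 167 and 140 CPM in DMSO 96 h cultures. The groups did not overlap, and Palld rose by 1.56-fold with WM-2474 and 1.54-fold with DMSO. Lpp, a LIM protein of focal adhesions, was at 616, 735.5 and 679 CPM in WM-2474 240 h cultures, against 476, 431 and 469 CPM in WM-2474 96 h cultures. It was at 678, 699 and 696 CPM in DMSO 240 h cultures, against 467, 412 and 416 CPM in DMSO 96 h cultures, and it rose by 1.48-fold with WM-2474 and 1.601-fold with DMSO.

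Pdlim5, Actn1 and Vcl had among the smallest p-values of this group. Pdlim5, a PDZ and LIM adaptor of actin fibres, was at 298, 311 and 334 CPM in WM-2474 240 h cultures, against 218, 220 and 231 CPM in WM-2474 96 h cultures. It was at 312, 328 and 320 CPM in DMSO 240 h cultures, against 227, 222 and 221 CPM in DMSO 96 h cultures. These groups were clear of each other, with a rise of 1.41-fold with WM-2474 and 1.43-fold with DMSO. The cross-linker alpha-actinin 1 (Actn1) was at 1718, 1803 and 1875 CPM in WM-2474 240 h cultures, against 1273, 1252 and 1327 CPM in WM-2474 96 h cultures. It was at 1729, 1898 and 1796 CPM in DMSO 240 h cultures, against 1291, 1330 and 1232 CPM in DMSO 96 h cultures. Actn1 rose by 1.40-fold with WM-2474 and 1.41-fold with DMSO, and no library of one time reached the other. Vinculin (Vcl), which links talin to actin, was at 1178, 1206 and 1241 CPM in WM-2474 240 h cultures, against 916, 905 and 944 CPM in WM-2474 96 h cultures. It was at 1210, 1272 and 1220 CPM in DMSO 240 h cultures, against 898, 930 and 892 CPM in DMSO 96 h cultures. Vcl rose by 1.31-fold with WM-2474 and 1.36-fold with DMSO. Exons of Ap3m1 on the opposite strand cover 25.5% of the exon bases of Vcl, and the log2 fold change of Ap3m1 was 0.01 with WM-2474 and -0.02 with DMSO.

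The myosin and filament genes of non-muscle cells rose by less than 1.5-fold. The non-muscle myosin heavy chains Myh9 and Myh10 had log2 fold changes of 0.43 and 0.42 with WM-2474 and 0.46 and 0.44 with DMSO, each ± 0.05. The adaptor Pdlim7 had 0.42 ± 0.05 and 0.39 ± 0.05, the cross-linker filamin A (Flna) had 0.36 ± 0.04 and 0.34 ± 0.04, and alpha-actinin 4 (Actn4) had 0.32 ± 0.04 and 0.31 ± 0.04. The acidic calponin Cnn3 had 0.32 ± 0.04 and 0.30 ± 0.04, the tropomyosin Tpm4 had 0.25 ± 0.05 and 0.29 ± 0.05, and the focal adhesion LIM protein Tgfb1i1 (Hic-5) had 0.26 ± 0.05 and 0.20 ± 0.05, the first with WM-2474 and the second with DMSO in each case. Talin 1 (Tln1), which joins integrins to actin, passed the test with 0.14 ± 0.05 with WM-2474 and 0.15 ± 0.05 with DMSO (adjusted p = 0.0344 and 0.0217). Its call with WM-2474 was lost without any of WM-2474 240 h replicates 2 and 3 and WM-2474 96 h replicates 1 and 2 (values of 0.10 to 0.13), and its call with DMSO without any of DMSO 240 h replicates 1 and 2 and DMSO 96 h replicate 1 (0.10 to 0.15).

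The cytoplasmic actins, the usual reference genes of expression studies, moved little. Actb was at 3530, 3753 and 3799 CPM in WM-2474 240 h cultures, against 3264, 3314 and 3334 CPM in WM-2474 96 h cultures. It was at 3397, 3534 and 3599 CPM in DMSO 240 h cultures, against 3203, 3402 and 3524 CPM in DMSO 96 h cultures. The libraries were apart with WM-2474 and overlapped with DMSO, and the log2 fold change was 0.16 ± 0.05 with WM-2474 (adjusted p = 0.00739) and 0.06 ± 0.04 with DMSO (adjusted p = 0.358). Actg1 was at 526, 548 and 512 CPM in WM-2474 240 h cultures, against 442, 459 and 476 CPM in WM-2474 96 h cultures. It was at 489, 494 and 509 CPM in DMSO 240 h cultures, against 434, 500 and 530 CPM in DMSO 96 h cultures, which spanned all DMSO 240 h libraries. Its log2 fold change was 0.20 ± 0.06 with WM-2474 (adjusted p = 0.00595) and 0.03 ± 0.06 with DMSO (adjusted p = 0.729). With library totals in place of TMM scaling the rises of Actb and Actg1 with WM-2474 missed the test, at 0.03 and 0.07. So did those of Smtn (0.10), Flnc (0.04), Csrp2 (0.17), Cnn2 (0.06) and Tln1 (0.004) with WM-2474. With DMSO the rises of Des (0.14), Tln1 (0.03) and Tgfb1i1 (0.08) missed it there.

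The 5 other general genes included the sole fall. Calponin 2 (Cnn2) and the essential light chain Myl6 rose with WM-2474, at 0.20 ± 0.04 and 0.32 ± 0.07, and had 0.08 ± 0.04 and 0.15 ± 0.07 with DMSO, which missed the test (adjusted p = 0.173 and 0.0788). Transgelin 2 (Tagln2) had 0.09 ± 0.05 with WM-2474 and 0.14 ± 0.05 with DMSO (adjusted p = 0.242 and 0.0528). It passed with WM-2474 without WM-2474 240 h replicate 1 (0.16, adjusted p = 0.0118). With DMSO it passed in 10 of 23 alternatives, among them leaving out any of 4 single libraries (0.14 to 0.17). The tropomyosin Tpm3 had -0.07 ± 0.05 and -0.02 ± 0.05 (adjusted p = 0.276 and 0.821). Zyxin (Zyx), a focal adhesion protein that responds to tension, was at 608, 641 and 609 CPM in WM-2474 240 h cultures, against 648, 639 and 692 CPM in WM-2474 96 h cultures. It was at 604, 587 and 621 CPM in DMSO 240 h cultures, against 629, 649 and 702 CPM in DMSO 96 h cultures. The WM-2474 libraries overlapped and the DMSO libraries did not, and the log2 fold change was -0.09 ± 0.05 with WM-2474 (adjusted p = 0.158) and -0.13 ± 0.05 with DMSO (adjusted p = 0.0395). The call with DMSO was lost without DMSO 240 h replicate 1 (-0.13, adjusted p = 0.0911) or 2 (-0.11, adjusted p = 0.143), and without DMSO 96 h replicate 2 (-0.14, adjusted p = 0.0516) or 3 (-0.08, adjusted p = 0.226).

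Levels of different genes were compared per kb of exon. In DMSO 96 h cultures Actb, at 1787 ± 85.7 RPKM, and Acta2, at 1598 ± 60.3 RPKM, led the 42 genes, followed by Tagln at 955 ± 16.5 RPKM (SD, n = 3 each). In DMSO 240 h cultures Acta2 stood at 3086 ± 207 RPKM, Actb at 1858 ± 54.5 RPKM and Tagln at 1704 ± 120 RPKM (SD, n = 3 each). The ratio of Acta2 to Actb was 1.64 ± 0.0750 in WM-2474 240 h cultures, against 0.925 ± 0.0289 in WM-2474 96 h cultures, and 1.66 ± 0.0912 in DMSO 240 h cultures, against 0.895 ± 0.0338 in DMSO 96 h cultures (SD, n = 3 each). Acta2 thus stood below Actb in all 6 libraries at 96 h and above it in all 6 at 240 h. The level of Actb is uncertain, since 35.1% of its 31-base words also occur in other genes of the annotation, against 1.496% for Acta2, and the handling of reads that fit several places is not given. The same holds for Tpm3 (70.4%), Actg1 (57.1%), Cnn3 (27.1%), Myl6 (23.6%) and Tpm4 (16.5%).

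In each of 5 protein families, 1 smooth muscle member was followed as a share of its family, and each had a larger share at 240 h. Shares are of the family's summed counts per kb, so they do not depend on scaling between libraries. They come from the same counts as the fold changes above, and the members were chosen with earlier results known. Their tests therefore add no separate support. Acta2 made up 53.9 to 56.9% of the 4 actins in the 6 libraries at 240 h, against 41.5 to 44.2% in the 6 at 96 h. Myh11 made up 6.64 to 8.16% of the 3 myosin heavy chains at 240 h, against 2.19 to 2.89% at 96 h, while Myh9 held 75.9 ± 1.68% in WM-2474 240 h cultures, against 79.9 ± 0.853% in WM-2474 96 h cultures (SD, n = 3 each). Cnn1 made up 15.8 to 18.02% of the calponins at 240 h, against 8.35 to 9.61% at 96 h. Tagln held most of its pair with Tagln2, at 88.7 to 90.8% at 240 h against 83.7 to 84.7% at 96 h. Tpm2 held 25.5 to 27.5% of the tropomyosins at 240 h, against 20.4 to 22.0% at 96 h. The other smooth muscle tropomyosin, Tpm1, held 34.8 ± 0.907% in WM-2474 240 h cultures, against 34.5 ± 0.0669% in WM-2474 96 h cultures, and 35.05 ± 1.11% in DMSO 240 h cultures, against 34.2 ± 0.257% in DMSO 96 h cultures (SD, n = 3 each), with overlapping libraries for both treatments. The other smooth muscle actin, Actg2, held 5.69 to 7.004% at 240 h, against 2.43 to 2.96% at 96 h. For Acta2, Myh11, Cnn1, Tagln and Tpm2 the 240 h libraries lay above all 96 h libraries, so that the two-sided exact permutation test over 6 against 6 libraries gave p = 0.0021645, the smallest it can give, for each of the 5 (adjusted p = 0.0021645). Within a treatment, the exact permutation test of 3 against 3 libraries cannot go below p = 0.1, and each of the 5 shares reached that value with WM-2474 and with DMSO. The test over 6 against 6 libraries took all libraries as independent. At 96 h the same-numbered WM-2474 and DMSO libraries deviated alike (correlations of 0.191 to 0.301), though no source names a pairing. If such libraries shared cultures, the p-value of that test may be too small.

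**Figure D3:**
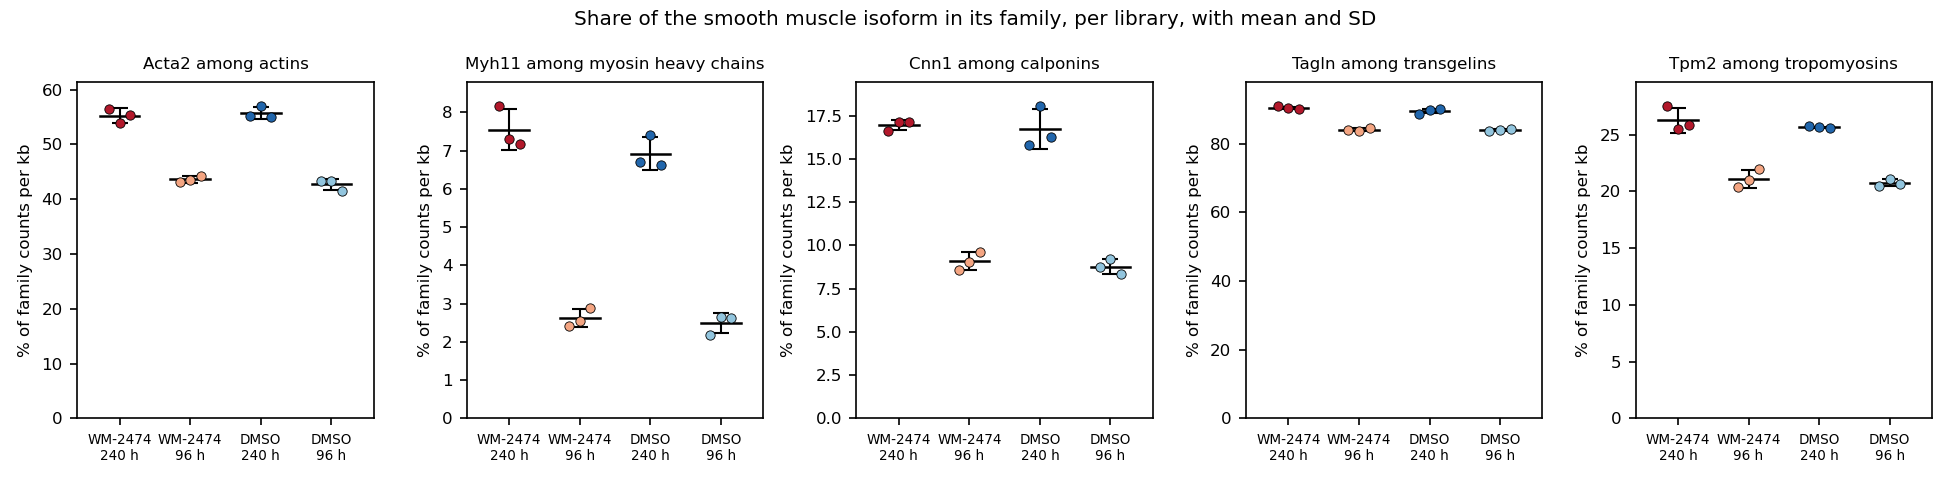
Share in percent (y axis, from 0) of 1 smooth muscle gene per family (Acta2, Myh11, Cnn1, Tagln and Tpm2) in its family's summed counts per kb, in each library of the 4 groups, with the mean and SD of 3 libraries. For all 5 genes shown the 240 h points lie above the 96 h points, most visibly for Myh11, at 6.64% or more against 2.89% or less.

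Genes related to the members were set beside the members. They form 4 lists, described by counts with no test of a list. Among all tested genes, 15.9% rose and 14.8% fell with WM-2474, and 17.5% rose and 17.3% fell with DMSO. Some genes, such as Itgb1, Itga5, Cfl1 and Wdr1, stand in more than 1 list, so the counts are not independent. Of 7 SRF coactivators and cofactors, 4 rose and 0 fell with each treatment, with a median log2 fold change of 0.16 with WM-2474 and 0.16 with DMSO. Fhl1, a LIM protein of muscle, rose by 1.01 ± 0.05 and 0.96 ± 0.05, its relative Fhl2 by 0.16 ± 0.05 and 0.17 ± 0.04, and the coactivator Mrtfb by 0.19 ± 0.06 and 0.31 ± 0.06, the first value with WM-2474 and the second with DMSO. The call of Fhl2 with WM-2474 was lost without WM-2474 96 h replicate 2 (0.13, adjusted p = 0.0538). Its value with DMSO was 0.17 without both DMSO 240 h replicates 1 and 2. The call of Mrtfb with WM-2474 was lost without any of WM-2474 240 h replicate 2 and WM-2474 96 h replicates 2 and 3 (0.14 to 0.18). Mrtfa, singled out after its values were seen, was at 133 ± 3.50 CPM in WM-2474 240 h cultures, against 126 ± 5.67 CPM in WM-2474 96 h cultures, and at 120 ± 2.98 CPM in DMSO 240 h cultures, against 124 ± 9.11 CPM in DMSO 96 h cultures (SD, n = 3 each), and missed the test. Of 17 tested SRF target genes outside the members, 10 rose with each treatment, while 2 fell with WM-2474 and 1 with DMSO, with medians of 0.27 and 0.32. The matrix protein gene Thbs1 (0.81 ± 0.05 and 0.82 ± 0.05) and the integrin chain Itgb1 (0.76 ± 0.06 and 0.83 ± 0.06) rose. The early response gene Egr1 fell, with -0.51 ± 0.07 with WM-2474 and -0.21 ± 0.07 with DMSO, and Ier2 fell with WM-2474 (-0.22 ± 0.07). The fall of Egr1 with DMSO was lost without any of DMSO 240 h replicate 2 (-0.12, adjusted p = 0.181), DMSO 96 h replicates 2 and 3, WM-2474 240 h replicate 3 and WM-2474 96 h replicate 3 (-0.18 to -0.21). That of Ier2 was lost without any of WM-2474 240 h replicates 1 to 3 and WM-2474 96 h replicates 2 and 3 (-0.18 to -0.23).

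Genes of actin turnover and of focal adhesions gave similar counts. Of 14 genes of actin turnover, 10 rose and 1 fell with each treatment, with Dstn (0.61 ± 0.05 and 0.65 ± 0.05) and Gsn (0.43 ± 0.04 and 0.38 ± 0.04), which sever actin filaments, among the rises, and Arpc1b of the Arp2/3 complex the fall (-0.19 ± 0.04 and -0.31 ± 0.04). Of 16 focal adhesion genes outside the members, 12 rose and 2 fell with each treatment. Tns1 (0.88 ± 0.06 and 0.87 ± 0.06) and Fermt2 (0.62 ± 0.05 and 0.64 ± 0.05) rose, and Parvb (-0.73 ± 0.07 and -0.67 ± 0.07) and Pxn (-0.20 ± 0.05 and -0.18 ± 0.05) fell, the first value of each pair with WM-2474 and the second with DMSO. The value of Pxn with DMSO was -0.17 without both DMSO 240 h replicates 1 and 2.

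**Figure D4:**
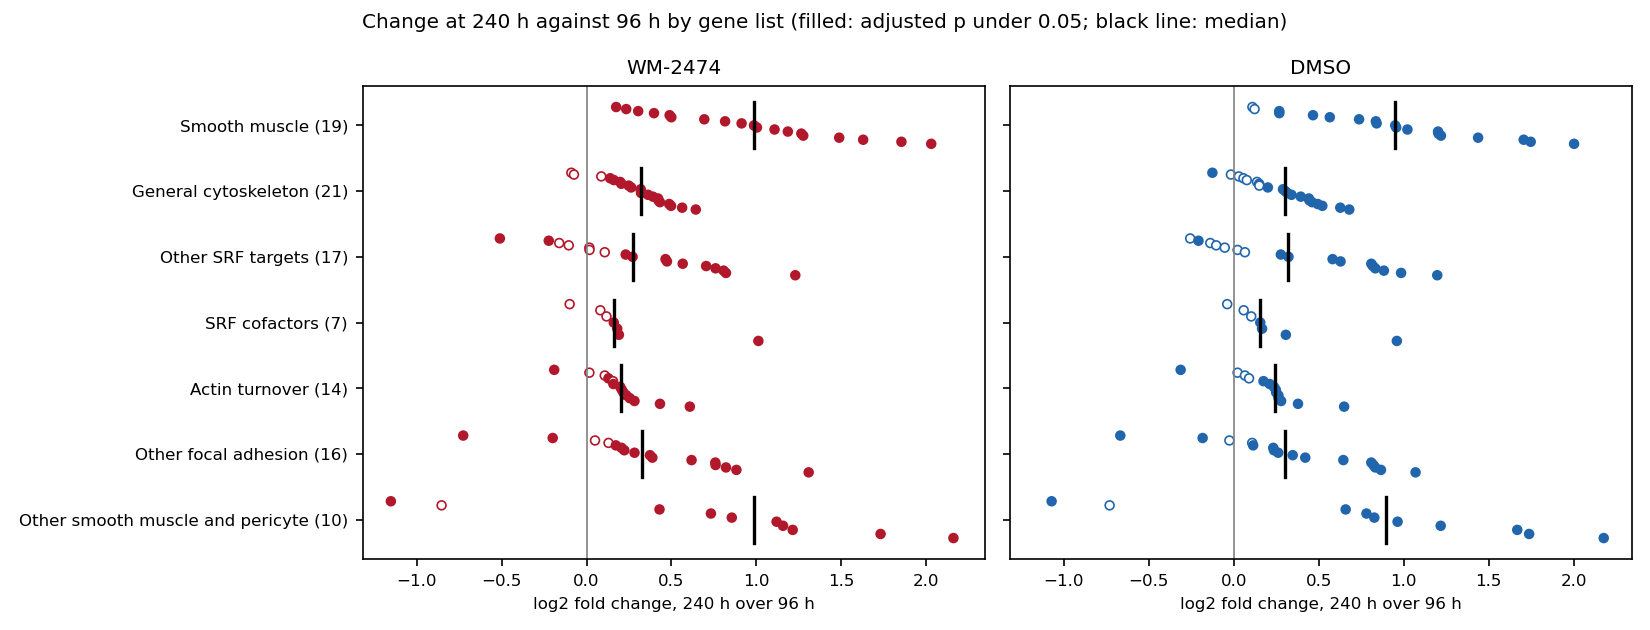
Log2 fold change at 240 h over 96 h (x axis) of each tested gene of the 2 large member groups and of 5 other lists, with WM-2474 at the left and DMSO at the right. Filled points passed an adjusted p of 0.05 and black lines mark list medians, which are 0.99 and 0.95 for the 19 smooth muscle genes and 0.32 and 0.30 for the 21 general genes.

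Markers of other cell types were summed beside these changes. For scale, 15.9% of all tested genes rose and 14.8% fell with WM-2474, and 17.5% rose and 17.3% fell with DMSO. Of 10 smooth muscle and pericyte markers outside the members, 8 rose and 1 fell with each treatment, and they summed to 1143 to 1254 CPM in WM-2474 240 h libraries, against 533 to 569 CPM in WM-2474 96 h libraries. The sums were 1144 to 1208 CPM in DMSO 240 h libraries, against 525 to 568 CPM in DMSO 96 h libraries. The adhesion molecule Mcam rose by 1.73 ± 0.06 and 1.74 ± 0.06, and the matrix gene Npnt by 0.85 and 0.83, while the potassium channel subunits Abcc9 and Kcnj8 fell with WM-2474 (-1.15 ± 0.32) and with DMSO (-1.07 ± 0.34), in that order. Fibroblast markers summed to 37823 to 39590 CPM in WM-2474 240 h libraries, against 23466 to 28742 CPM in WM-2474 96 h libraries, and to 34864 to 35793 CPM in DMSO 240 h libraries, against 23813 to 28525 CPM in DMSO 96 h libraries. By gene, 6 of these 9 markers rose and 1 fell with each treatment. How far a change in cell mixture entered the rise of the smooth muscle genes was not tested.

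Skeletal muscle markers were at or near 0 apart from the skeletal actin Acta1, which rose and stood at 263 ± 33.5 CPM in WM-2474 240 h cultures, against 120 ± 5.89 CPM in WM-2474 96 h cultures, and at 253 ± 42.6 CPM in DMSO 240 h cultures, against 125 ± 12.6 CPM in DMSO 96 h cultures (SD, n = 3 each). Myf6 and Ckm had 0 counts in every library, and Myod1 had 0 counts at 240 h. Cardiac markers summed to at most 13.6 CPM, of which Tnnt2 held 6.76 ± 1.88 CPM in WM-2474 240 h cultures, against 2.32 ± 0.338 CPM in WM-2474 96 h cultures (SD, n = 3 each). Tnnt2 was the exception, since of the 4 tested cardiac markers 1 rose and 2 fell with each treatment. Endothelial markers summed to at most 7.94 CPM, macrophage and blood markers to at most 8.66 CPM and adipocyte markers to at most 2.46 CPM in any library, with Cidec and Lep at 0 counts. Epithelial markers summed to 14.3 to 16.4 CPM in the 240 h libraries, against 24.2 to 30.9 CPM in the 96 h libraries. The mitochondrially encoded share was 1.28 to 1.43% of counts at 240 h, against 1.46 to 1.57% at 96 h.

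The second question was whether WM-2474 differed from its vehicle. None of the 42 genes passed the test at 240 h, where 4 of the 13499 tested genes were called higher and 0 lower (0.0296% and 0%). At an unadjusted p under 0.05, edgeR listed 2 of the 42, DESeq2 2 and limma-voom 5, and none passed adjustment with any of these tools. Of all tested genes, 8.14% were under that unadjusted limit by edgeR, 5.16% by DESeq2 and 8.56% by limma-voom. Myl6 was at 138, 146 and 123 CPM in WM-2474 240 h cultures, against 114, 128 and 117 CPM in DMSO 240 h cultures, with a log2 fold change of 0.19 ± 0.07 (95% interval 0.06 to 0.33, adjusted p = 0.48). Flnc was at 701, 755 and 754.5 CPM in WM-2474 240 h cultures, against 666, 693 and 676 CPM in DMSO 240 h cultures, with 0.12 ± 0.05 (95% interval 0.02 to 0.22, adjusted p = 0.543). The libraries of Myl6 overlapped and those of Flnc did not. All WM-2474 240 h libraries lay above all DMSO 240 h libraries for 3 of the 42, Flnc, Actg1 and Cnn2, and below them for 0, against 7.58% and 6.72% of all tested genes. Leaving out DMSO 240 h replicates 1 and 2 leaves 1 library in that group. The largest absolute log2 difference among the 42 was then 0.42, against 0.38 with all libraries. The 95% interval of the log2 difference at 240 h was -0.05 to 0.15 for Acta2, -0.07 to 0.14 for Tagln, -0.09 to 0.35 for Myh11 and -0.06 to 0.22 for Cnn1. It was wider for Actg2 (-0.16 to 0.40) and for Pdlim3 (-1.09 to 0.34).

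At 96 h none of the 42 genes passed either, and no gene in the whole table was called higher or lower (0% of 13499). At an unadjusted p under 0.05, edgeR listed 1 of the 42, DESeq2 1 and limma-voom 4, again with 0 after adjustment. Of all tested genes, 2.1% were under that limit by edgeR, 0.807% by DESeq2 and 2.96% by limma-voom. For Mylk, whose library values are given above, the log2 difference was 0.28 ± 0.08 (95% interval 0.12 to 0.45, adjusted p = 0.99996), and its WM-2474 96 h libraries lay above the DMSO 96 h libraries. Mylk was the only 1 of the 42 with such a separation upward and Pdlim3 the only 1 downward, against 3.62% and 3.83% of all tested genes. Lmod1 came next with 0.10 ± 0.05 (95% interval -0.00 to 0.21, adjusted p = 0.99996). The interval was -0.08 to 0.12 for Acta2, -0.14 to 0.06 for Tagln and -0.15 to 0.35 for Myh11. Over the 42 genes the median log2 fold change of WM-2474 over DMSO was 0.03 at 240 h and 0.02 at 96 h.

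**Figure D5:**
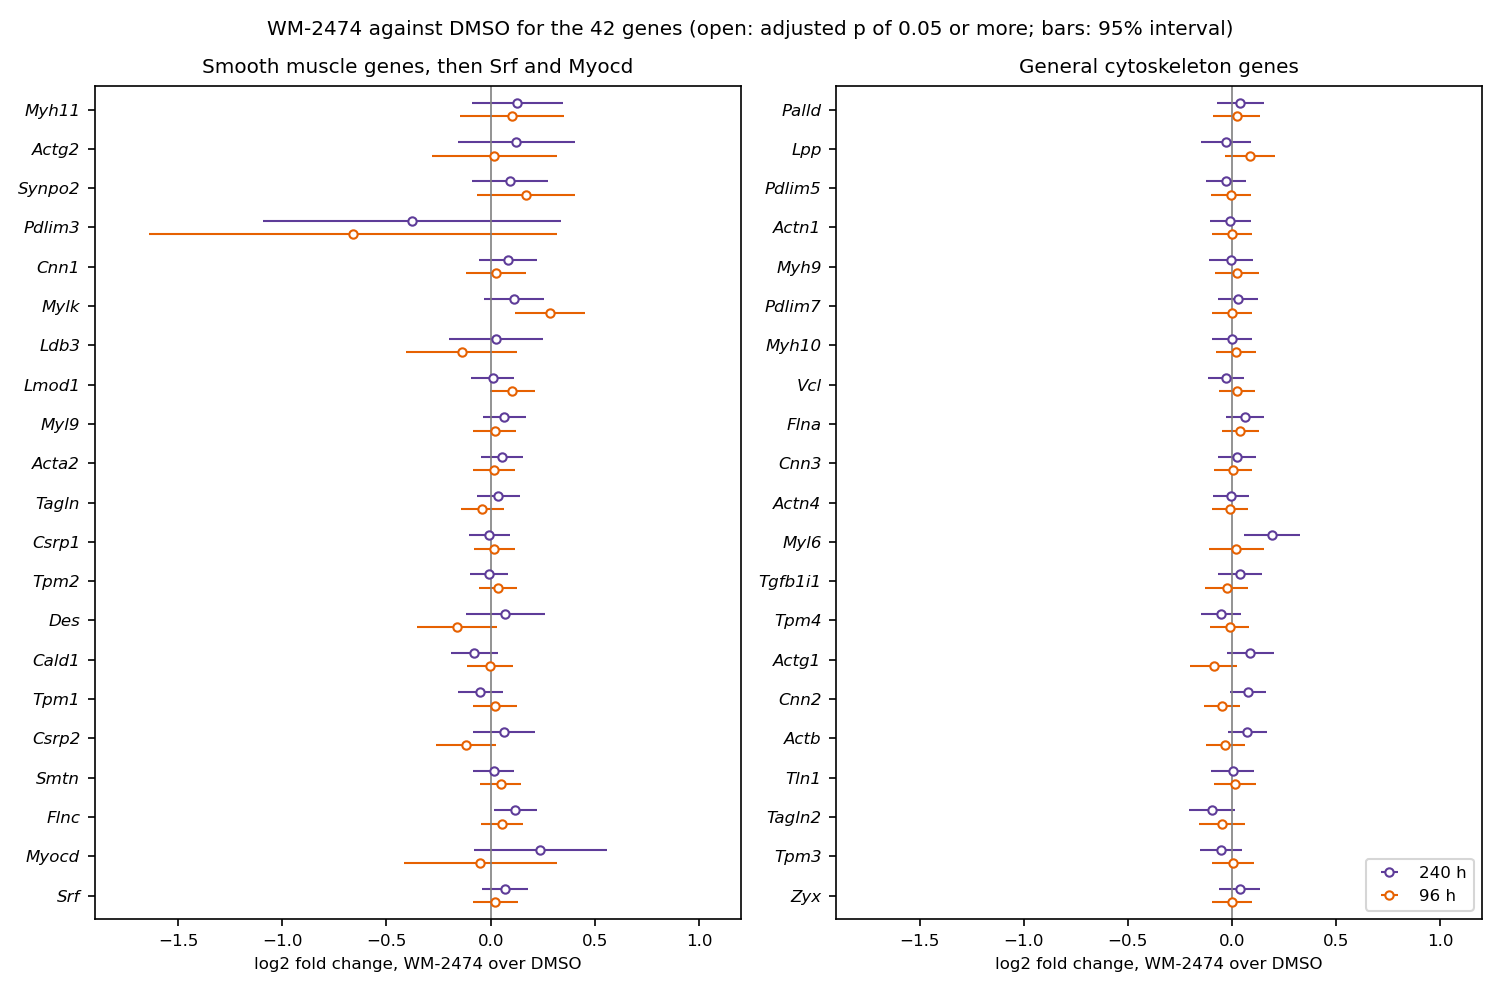
Log2 fold change of WM-2474 over DMSO (x axis) of the 42 genes at 240 h in purple and at 96 h in orange, with 95% intervals. All points are open, since none of the 42 passed an adjusted p of 0.05 at either time, and the widest intervals belong to Pdlim3, the least abundant gene.

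The changes over time were also set against each other directly. The difference between the change with WM-2474 and the change with DMSO passed the test for 0 of the 42 genes and for 0% of the 13499 tested genes. At an unadjusted p under 0.05, edgeR listed 1 of the 42, DESeq2 2 and limma-voom 3, with 0 after adjustment. Of all tested genes, 4.63% were under that limit by edgeR, 2.2% by DESeq2 and 5.97% by limma-voom. The smallest p-values belonged to Actg1, with 0.18 ± 0.08 (95% interval 0.01 to 0.34), and Cnn2, with 0.12 ± 0.06 (95% interval -0.00 to 0.25), both at an adjusted p of 0.977. For Acta2 the difference was 0.04 ± 0.07 (95% interval -0.11 to 0.18), for Myh11 0.03 ± 0.15 (-0.30 to 0.36), for Mylk -0.17 ± 0.11 (-0.39 to 0.05) and for Lmod1 -0.10 ± 0.07 (-0.24 to 0.05). The genes that rose with WM-2474 and missed the test with DMSO, among them Csrp2, Flnc, Actb and Actg1, were therefore not shown to respond differently.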

How the data were processed

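RNA was measured with a stranded mRNA library kit, per the labels' protocols. The authors deposited a single table that holds raw counts for each gene, unnormalized, and the exon length of the gene. featureCounts and mm10 appear among the tools and builds, per the submitters' processing notes; the aligner, annotation, and strand and multiple-mapping settings are not given in the sources used here. Columns were matched to samples by treatment, time and replicate number. Entries without an identifier (874 of 27179, 0.547 to 0.648% of counts) were left out, and symbols came from the GRCm38.p6 annotation (25275 identifiers, 96.1%).

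edgeR 4.0.16 was fitted on all 12 libraries with 1 coefficient per group, after filterByExpr (13499 genes) and TMM scaling (factors 0.943 to 1.05), with robust quasi-likelihood F tests, two-sided, adjusted by Benjamini-Hochberg over all tested genes within each of 5 contrasts, at a threshold of 0.05. Values after ± are standard errors for log2 fold changes and SD for levels. Intervals are 95% and cover the fitted spread. The floor of 3 counts is a fixed limit and does not measure counting error. Family shares were tested by exact permutation. R 4.3.3, limma 3.58.1, DESeq2 1.42.0, Python 3.11.15, pandas 2.3.3, scipy 1.17.1 and matplotlib 3.10.9 were used, and the fits were tested on simulated data. No pair of replicates agreed within sampling noise (chi-square divided by its degrees of freedom, 2.02 to 4.99).

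The members and lists were chosen with earlier results of these data known. All 42 members may be named. Values of every library are given for Acta2, Tagln, Cnn1, Myh11, Mylk, Actb, Actg1, Srf, Myocd and up to 4 members per group and direction with the smallest p in either time change; where no member passed, the 2 with the smallest p are named, and of other lists up to 2 rising and 2 falling genes. Other lists were SRF cofactors, SRF targets, actin turnover, focal adhesion, and markers of fibroblasts, smooth muscle and pericytes, skeletal and cardiac muscle, endothelium, macrophages and blood, B lineage, epithelium and adipocytes; 1 further list is not reported here.

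Replicate numbers were checked for pairing by the correlation of deviations from group means over genes. The correlations were highest between WM-2474 and DMSO cultures of 96 h (0.301, 0.235 and 0.191), though no source names a pairing. In the other comparisons the correlations were lower, at -0.00783 to 0.132. Up to 23 alternatives per result comprised other scalings, filters and tools, a replicate block, fits of only the compared libraries, a test against a fold of 1.2, and leaving out libraries.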

Additional observations from a re-analysis of the deposited data

How the results depend on the processing

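The alternatives, all planned, kept the direction of every called change of the 42 genes. With WM-2474, 36 to 39 genes rose when 1 library was left out and 26 to 39 under the other alternatives. With DMSO the ranges were 31 to 34 and 24 to 35. The share over all tested genes in most of these fits is not given here, so the counts show only how far the calls held. A call held in every alternative for 15 smooth muscle and 9 general genes with WM-2474 and for 14 and 8 with DMSO, and Myocd was called in all with both. Under library totals the median log2 fold change of all genes was -0.14 with WM-2474 and -0.13 with DMSO, and rises made up 19.99% and 21.4% of calls, against 51.8% and 50.4% with TMM. There 32 members rose and 2 fell (Tpm3 and Zyx) with WM-2474, where 1097 of the 13499 tested genes rose and 4391 fell. With DMSO 30 members rose and 2 fell, where 1190 of all tested genes rose and 4381 fell. Against a fold of 1.2, 26 rose with WM-2474, and 24 rose and 0 fell with DMSO, of which 9 and 8 were general genes. The count that fell with DMSO was 0 to 1 when 1 library was left out. The counts of 0 in the treatment comparisons and in the difference stayed at 0. Share differences at 240 h minus 96 h moved by little, for Acta2 between 11.98 and 12.996 points and for Myh11 between 4.21 and 4.79 points. The cause of these changes was not tested.

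With the replicate number as a block, 39 members rose with WM-2474 and 35 with DMSO, and the share over all tested genes in that fit is not given here. At 96 h, where same-numbered libraries had the highest correlations, the replicate block called 0 members. With only the compared libraries, 5 of 41 members were under an unadjusted p of 0.05, against 6.32% of the 13377 genes of that fit. The smallest adjusted p was 0.0847, so that the block changed no member call there. Elsewhere the correlations were -0.00783 to 0.132. Whether the numbers name shared cultures is not known for any comparison. At 240 h between treatments, the fit of only the compared libraries called 91 of 12777 genes with the block and 15 without it. There 5 of 42 members were under an unadjusted p of 0.05 with the block and 2 without, against 11.3% and 8.67% of all genes. None passed adjustment, and the smallest adjusted p with the block was 0.116. Depth limits Pdlim3 and Myocd most.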
